A study of Mus musculus with 18 samples.

Results

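The growth factors that start and steady the growth of blood vessels, and the receptors that read them, were followed as a group of 10 genes: the angiopoietin Angpt2 and its receptor Tek, the vascular endothelial growth factors Vegfa, Vegfb, Vegfc and Pgf, their receptors Flt1 and Kdr, and the thrombospondins Thbs1 and Thbs2. They were taken by symbol from the 24421 gene symbols present in both count tables, and all 10 were found. The group was chosen by the level of Angpt2, put together after its large rise had been seen in the cultured cells labelled Pot1a Δ/Δ at week 4. The differences of these genes that rest on those libraries are therefore given as a description, with no test. Of the 10 genes, 8 passed the filter on low counts in culture, where Flt1 and Kdr did not, and all 10 passed it in the sorted cells.

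RNA was sequenced in 18 libraries from mouse bone marrow (BM) mesenchymal stem cells (MSCs) of C57BL/6 background, 3 libraries in each of 6 groups, to compare cells with and without POT1a, a protein that protects telomeres. The cultured cells came from mice aged 4 to 6 months that were Pot1a wt/wt or Pot1a flox/flox, both with a flox-stop-flox tdTomato reporter. In every one of the 4 cultured groups, the wt/wt controls included, CD51+/PDGFRα+ cells received Gesicles, which are cell-derived vesicles loaded with Cre, for 12 h (10 µL per well), and tdTomato+ cells were sorted after a further 48 h. The groups were wt/wt and Δ/Δ cells kept to week 1 and wt/wt and Δ/Δ cells kept to week 4. By the study's methods, the cultured cells were passaged weekly and kept at oxygen below that of air. The sorted cells were tdTomato+ cells taken directly from the BM of mice aged 2 weeks that carried NG2-cre and loxp-tdTomato, with 1 floxed allele of Pot1a (wt/fl, titled wt/Δ by the submitters) or both alleles floxed (fl/fl, titled Δ/Δ). The Ng2 (Cspg4) promoter drives Cre in this line, all 6 libraries carry Cre and the reporter, and the gate was CD45-TER119-CD31-. The genotype field of the labels reads fl/fl for all 6 sorted libraries, so these groups follow the titles and the stated design. Nothing in the labels ties a library to a mouse, so p-values measure the spread between libraries.

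Angiopoietins are secreted proteins that act on TIE2, the receptor kinase encoded by Tek, on endothelial cells. ANGPT1 is known to steady vessels by activating TIE2, and ANGPT2, in many settings an antagonist of it, is known to loosen them. VEGFA acts through KDR (VEGFR2), the main receptor for endothelial growth, while VEGFB and PGF bind FLT1 (VEGFR1), which binds VEGFA tightly and signals weakly. VEGFC acts mainly on FLT4 (VEGFR3) of lymphatic vessels. Thrombospondins 1 and 2 are matrix proteins that restrain vessel growth through CD36 and CD47. In BM the MSCs around sinusoids are known sources of Angpt1 and of VEGF ligands, while Tek, Flt1 and Kdr mark the endothelium.

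RefSeq promoters of GRCm38.p6, 250 bases before to 50 after the start of the transcript, were at hand for 8 of the 10 genes, Angpt2 and Thbs1 not among them. They are shown for Vegfc, Pgf and Tek, the genes other than Angpt2 whose levels moved in culture, and for Flt1 and Kdr, whose transcripts were nearly missing in culture and plentiful in sorted cells. The intervals are chr8:54077282-54077581 on the plus strand for Vegfc, chr12:85177264-85177563 on the minus strand for Pgf (the upstream of its 2 starts), chr4:94739039-94739338 on the plus strand for Tek, chr5:147725962-147726261 on the minus strand for Flt1 and chr5:75978406-75978705 on the minus strand for Kdr. Capitals mark matches, on either strand, to 8 short motifs. These were the GC box written as GGGCGG, the core promoter motif TATAAA, the AP-1 motif TGANTCA, the hypoxia response element in its forms ACGTG or GCGTG, the forkhead motif GTAAACA, the ETS motif CCGGAA and the RUNX motif TGTGGT.
Vegfc: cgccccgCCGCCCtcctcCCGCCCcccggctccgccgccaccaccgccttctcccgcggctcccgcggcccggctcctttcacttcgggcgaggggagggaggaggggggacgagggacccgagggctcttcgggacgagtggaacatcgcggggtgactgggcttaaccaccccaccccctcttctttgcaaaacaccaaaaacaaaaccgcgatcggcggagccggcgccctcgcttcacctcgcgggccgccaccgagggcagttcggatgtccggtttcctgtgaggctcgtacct
Pgf: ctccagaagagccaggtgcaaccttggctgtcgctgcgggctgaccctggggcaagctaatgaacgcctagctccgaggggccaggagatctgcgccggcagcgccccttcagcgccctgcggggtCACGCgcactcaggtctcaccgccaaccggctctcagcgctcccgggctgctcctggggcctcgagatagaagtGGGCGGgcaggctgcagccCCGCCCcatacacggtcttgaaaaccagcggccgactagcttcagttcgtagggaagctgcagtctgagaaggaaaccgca
Tek: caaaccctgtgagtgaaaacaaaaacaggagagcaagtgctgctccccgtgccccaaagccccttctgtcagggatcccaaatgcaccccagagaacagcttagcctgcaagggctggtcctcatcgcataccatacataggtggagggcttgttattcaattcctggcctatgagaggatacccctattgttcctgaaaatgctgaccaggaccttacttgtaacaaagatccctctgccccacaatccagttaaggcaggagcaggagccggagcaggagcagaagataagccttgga
Flt1: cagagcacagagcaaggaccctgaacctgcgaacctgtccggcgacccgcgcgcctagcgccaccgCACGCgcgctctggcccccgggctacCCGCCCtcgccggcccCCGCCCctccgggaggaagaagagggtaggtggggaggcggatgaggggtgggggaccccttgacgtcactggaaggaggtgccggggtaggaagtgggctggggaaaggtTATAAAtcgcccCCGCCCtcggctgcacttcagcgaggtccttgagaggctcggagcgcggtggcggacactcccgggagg
Kdr: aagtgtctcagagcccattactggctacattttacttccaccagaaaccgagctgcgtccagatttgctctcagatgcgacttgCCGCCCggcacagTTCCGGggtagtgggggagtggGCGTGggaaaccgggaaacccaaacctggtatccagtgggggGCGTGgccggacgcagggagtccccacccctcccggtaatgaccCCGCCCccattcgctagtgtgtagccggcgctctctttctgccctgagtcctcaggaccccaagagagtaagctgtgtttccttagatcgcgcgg

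Vegfc had 2 GC boxes and Pgf had 2 GC boxes and 1 GCGTG. Flt1 had 3 GC boxes, 1 GCGTG and a TATAAA whose first base lay 31 bases before the start. Kdr had 2 GC boxes, 2 matches to GCGTG and 1 to CCGGAA. The Tek window held none of the 8 motifs, and no 2 matches in these promoters shared a base. Among all 32851 promoters of the same length, GGGCGG was found in 35.7%, GCGTG in 32.4%, ACGTG in 19.6%, TGTGGT in 16.8%, CCGGAA in 14.9%, TATAAA in 13.6%, TGANTCA in 7.81% and GTAAACA in 3.65%. The G and C content was 70.3% for Vegfc, 66.0% for Pgf, 52.0% for Tek, 70.7% for Flt1 and 60.7% for Kdr, against a median of 52.7% over all promoters. These matches describe the letters of the windows only.

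Depth ran from 12807832 to 90717232 counts per library in culture and from 28918757 to 49992698 in sorted cells. Pot1a itself, the gene Cre acts on, was at 31.2 to 37.6 CPM (counts per 1000000 counts of the library) in the week 1 Δ/Δ libraries and at 43.5 to 48.6 CPM in those of week 4. The wt/wt libraries held 32.8 to 35.6 and 32.6 to 39.5 CPM, so the count of Pot1a, which is read over the whole gene, was not lower in Δ/Δ. At week 4 every Δ/Δ library lay above every wt/wt library. The study reported less Pot1a RNA in deleted cells, cultured and sorted, by PCR assays of its own, which are not analysed here. In sorted cells the count of Pot1a was at 24.4 to 35.5 CPM (wt/fl) and 19.4 to 32.6 CPM (fl/fl). Genotypes are given as labelled. In culture, 15 endothelial markers summed to 6.47 to 9.48 CPM, with Cdh5 and Emcn at 0 counts in 3 of the 4 groups. In the sorted libraries, which came from a CD31- gate, the same markers summed to 3387 to 4915 CPM, with Pecam1 (CD31) at 114 to 219 CPM. The summed level of 10 megakaryocyte markers was 1756 CPM in wt/fl replicate 2 and 980.1 CPM in fl/fl replicate 3, against 20.6 to 33.4 CPM in the other 4 sorted libraries. In bulk RNA, fewer cells of a type and less RNA per cell cannot be told apart.

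**Figure D1:**
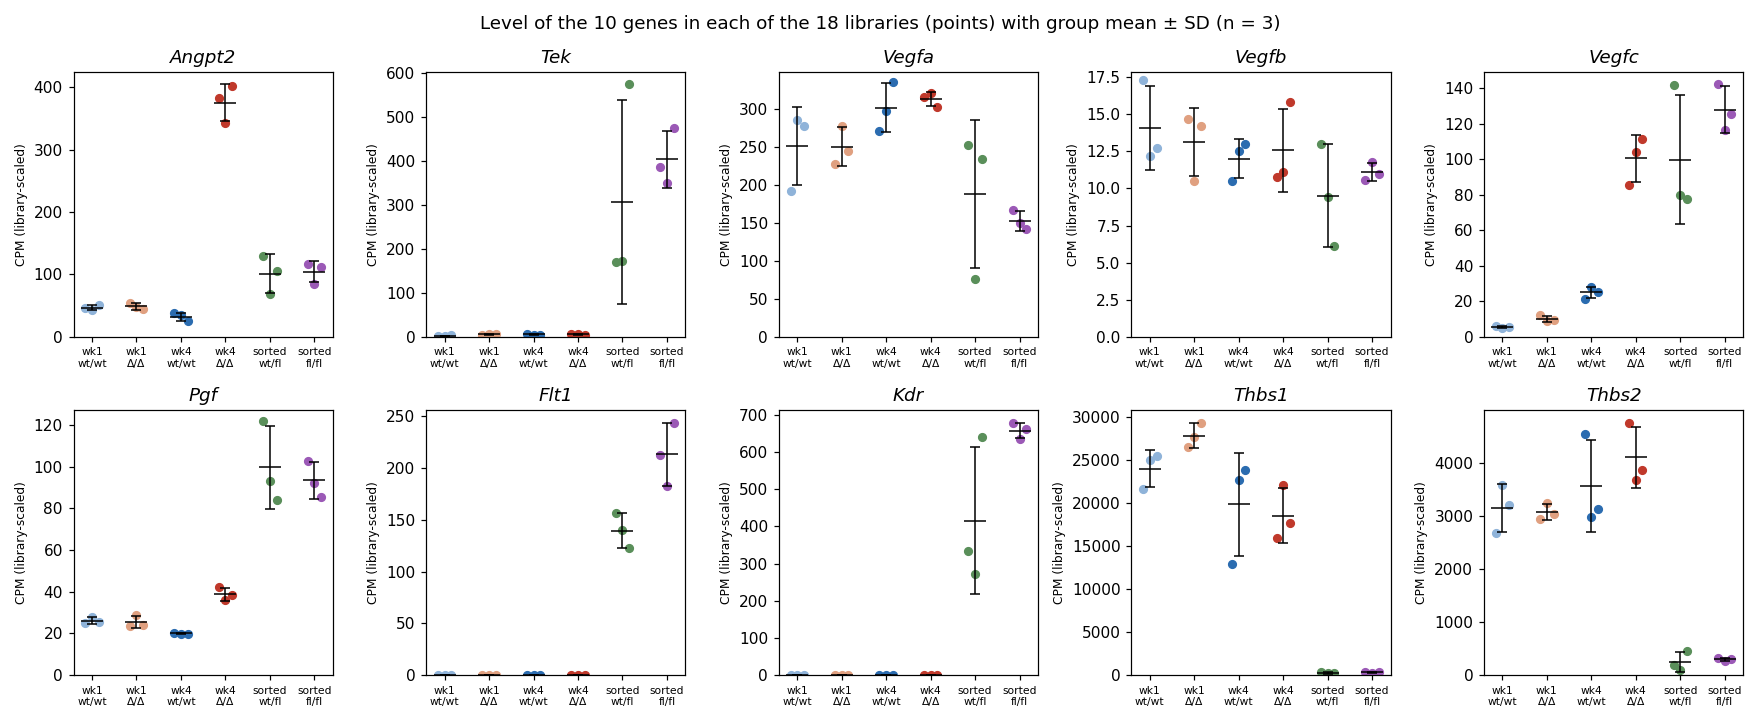
Level of each of the 10 genes (y axis, CPM scaled to the library total, from 0) in each of the 18 libraries (points), by group on the x axis, with the mean and SD of 3 libraries as bars. Angpt2 lay between 342.7 and 401.6 CPM in the week 4 Δ/Δ libraries and at 130.0 CPM or less in the other 15, while Tek, Flt1 and Kdr were plentiful in sorted cells and Thbs1 and Thbs2 in culture.

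Angpt2 (chr8:18690263-18741562 of GRCm38, minus strand, inside the span of Mcph1 but sharing no exonic base with it) stood apart in one group. It was at 46.4, 42.5 and 51.3 CPM in wt/wt and at 54.6, 47.4 and 44.0 CPM in Δ/Δ at week 1. At week 4 it was at 37.4, 34.6 and 24.6 CPM in wt/wt and at 382.9, 342.7 and 401.6 CPM in Δ/Δ. The week 1 groups overlapped, and at week 4 the lowest Δ/Δ library was far above the highest wt/wt library. The level of Mcph1, which is read from the other strand and was counted without strand, was 17.9 ± 1.46 CPM in wt/wt and 17.2 ± 1.61 CPM in Δ/Δ at week 4 (SD, n = 3).

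The fitted difference of Angpt2 at week 1 was 0.05 on the log2 scale (SE 0.14, 95% interval -0.26 to 0.36), with an adjusted p of 0.958 by edgeR (quasi-likelihood F-test, p-values adjusted by Benjamini-Hochberg over 13169 genes). At week 4, the contrast that chose the group, it was 3.55 (SE 0.16), a fold of 11.7. That is given as a description. From week 1 to week 4, Angpt2 differed by -0.56 (SE 0.14) in wt/wt, with no overlap of the libraries, and by 2.93 (SE 0.15) in Δ/Δ. The wt/wt value has no test here because it shares the wt/wt libraries of week 4 with the contrast that chose the group. By level per kb of exon, Angpt2 ranked between 3300 and 3793 of 23376 genes in wt/wt at week 1 and between 341 and 378 in Δ/Δ at week 4.

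In sorted cells Angpt2 did not separate the genotypes. It was at 130.0, 68.0 and 105.6 CPM in wt/fl and at 116.4, 85.1 and 111.3 CPM in fl/fl. All fl/fl libraries lay inside the wt/fl range, and the fitted log2 difference was -0.05 (SE 0.27, interval -0.67 to 0.57, adjusted p = 0.968 by edgeR over 14605 genes). The sorted cells differ from the cultured ones in age, preparation and control genotype (wt/fl), and their libraries hold endothelial markers. Sorted and cultured differences were not tested against each other.

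Within a library, the ratio of Angpt2 to Angpt1, the steadying ligand of the same receptor, was taken per kb of exon. Of the exonic bases of Angpt1, 14.2% are shared with the opposite-strand gene Gm17473, and counts keep no strand. The ratio was 1.16 to 1.28 in wt/wt and 0.95 to 1.16 in Δ/Δ at week 1. At week 4 it was 1.07, 1.2 and 0.476 in wt/wt and 6.16, 4.45 and 8.14 in Δ/Δ. In sorted cells Angpt1 was the more abundant of these 2 ligands in every library, with a ratio of 0.705 to 0.827 in wt/fl and 0.51 to 0.712 in fl/fl. Angpt4, also a ligand of TIE2, is not part of this ratio. Its mean was 46.8 (wt/wt) and 51.7 (Δ/Δ) CPM per kb at week 1. At week 4 it was 155.8 (wt/wt) and 65.7 (Δ/Δ) CPM per kb.

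Tek (chr4:94739289-94874976, plus strand), the receptor of both ligands, was a minor transcript in culture and was higher in Δ/Δ at week 1. At week 1 it was at 1.81, 1.97 and 2.98 CPM in wt/wt and at 4.55, 5.54 and 5.76 CPM in Δ/Δ, from 52 to 80 and 75 to 192 counts. The groups did not overlap, and the log2 difference of 1.23 (SE 0.22, a fold of 2.35) passed the test with an adjusted p of 0.02 by edgeR. At week 4 the wt/wt libraries held 6.09, 5.0 and 4.96 CPM and the Δ/Δ libraries 6.47, 6.38 and 4.74 CPM. These overlapped, at a log2 difference of 0.13 (SE 0.21), given as a description. In wt/wt the level rose from week 1 to week 4 by 1.22 (SE 0.22, adjusted p = 0.00114 by edgeR), with no overlap, so that Tek at week 4 in both genotypes was near its week 1 level in Δ/Δ. The week 1 call was lost without wt/wt replicate 1 (adjusted p = 0.0543) or 2 (0.0994) and without Δ/Δ replicate 2 (0.0861) or 3 (0.0981) by edgeR, with the log2 difference between 1.07 and 1.5 over all alternatives.

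In sorted cells Tek was at 171.1, 173.4 and 574.5 CPM in wt/fl and at 385.9, 349.9 and 476.2 CPM in fl/fl. Replicate 3 of wt/fl was higher than every fl/fl library and the other wt/fl libraries were lower than every one. The fitted difference was 0.35 on the log2 scale (SE 0.43, adjusted p = 0.805 by edgeR). It was 1.1 without wt/fl replicate 3 (adjusted p = 0.0909 by edgeR), 0.09 without wt/fl replicate 1 and 0.08 without wt/fl replicate 2, the library rich in megakaryocyte markers.

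Among the VEGF ligands, Vegfc (chr8:54077606-54187096, plus strand) moved in every comparison in culture. At week 1 it was at 6.06, 4.7 and 5.69 CPM in wt/wt and at 12.2, 8.78 and 9.56 CPM in Δ/Δ. At week 4 it was at 21.4, 28.1 and 25.4 CPM in wt/wt and at 85.8, 104.2 and 111.5 CPM in Δ/Δ. No pair of these 4 groups overlapped, and the order was the same at both weeks, with Δ/Δ above wt/wt and week 4 above week 1.

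The week 1 difference of Vegfc was 0.89 on the log2 scale (SE 0.17, a fold of 1.85, adjusted p = 0.0309 by edgeR). It lay near the threshold: the adjusted p by edgeR was 0.0526, 0.131 and 0.0939 without wt/wt replicates 1, 2 and 3 and 0.113, 0.0604 and 0.0912 without Δ/Δ replicates 1, 2 and 3, and 0.059 with a replicate block. By DESeq2 it was 0.000618. The log2 difference stayed between 0.741 and 0.984 over these alternatives. The rise with time in wt/wt was 2.18 (SE 0.17, a fold of 4.52, adjusted p = 1.61e-06 by edgeR) and was called under all 14 alternatives. The week 4 difference was 2.0 (SE 0.17) and the change with time in Δ/Δ was 3.28 (SE 0.18), both as a description.

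In sorted cells Vegfc was at 141.8, 80.1 and 77.4 CPM in wt/fl and at 142.4, 116.4 and 125.4 CPM in fl/fl. The groups overlapped, and the log2 difference was 0.26 (SE 0.29, interval -0.41 to 0.92, adjusted p = 0.781 by edgeR). The cultured Δ/Δ libraries of week 4 were inside the range of the wt/fl sorted libraries, which were of another table, age and preparation and were not tested against culture.

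Pgf (chr12:85166635-85177790, minus strand), a ligand whose only VEGF receptor kinase is FLT1, was at 24.9, 28.1 and 25.5 CPM in wt/wt and at 23.7, 28.8 and 23.9 CPM in Δ/Δ at week 1. At week 4 it was at 20.3, 19.7 and 19.9 CPM in wt/wt and at 42.1, 35.9 and 38.2 CPM in Δ/Δ. The genotypes overlapped at week 1 (log2 difference -0.05, SE 0.12, adjusted p = 0.957 by edgeR) and lay apart at week 4, by 0.95 (SE 0.12) as a description. In wt/wt Pgf fell with time by 0.41 on the log2 scale (SE 0.12, adjusted p = 0.0188 by edgeR). That call was lost when the wt/wt libraries were fitted alone, with an adjusted p of 0.0643 by edgeR, or of 0.0596 with a replicate block, and without wt/wt replicate 2 of week 1, at 0.0871. In sorted cells Pgf was at 122.1, 93.3 and 83.9 CPM in wt/fl and at 103.0, 92.3 and 85.4 CPM in fl/fl, a log2 difference of -0.19 (SE 0.21, adjusted p = 0.791 by edgeR).

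Vegfa (chr17:46016993-46032369, minus strand), the main ligand of KDR, was abundant and did not pass the test. It was at 192.1, 285.4 and 277.6 CPM in wt/wt and at 227.8, 278.2 and 244.9 CPM in Δ/Δ at week 1, and at 271.9, 297.1 and 336.2 against 316.3, 321.8 and 303.2 CPM at week 4. The genotypes overlapped at both weeks. The log2 difference was -0.02 at week 1 (SE 0.16, interval -0.38 to 0.34, adjusted p = 0.991 by edgeR) and 0.05 at week 4 (SE 0.16, interval -0.31 to 0.41, as a description). In sorted cells it was at 253.1, 75.8 and 234.3 CPM in wt/fl, where replicate 2 was low, and at 167.6, 149.7 and 142.0 CPM in fl/fl, a log2 difference of -0.38 (SE 0.41, adjusted p = 0.771 by edgeR).

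Vegfb (chr19:6982473-6987651, minus strand), which like PGF binds FLT1, did not pass the test in any tested comparison. It lay between 10.5 and 17.3 CPM in all 12 cultured libraries and between 6.09 and 13.0 CPM in the sorted ones. Its log2 difference was -0.1 at week 1 (SE 0.19, adjusted p = 0.939 by edgeR), 0.06 at week 4 (SE 0.19) and 0.12 in sorted cells (SE 0.33, adjusted p = 0.923 by edgeR). Because Vegfc moved and Vegfa did not pass a test, the ratio of Vegfc to Vegfa per kb within a library went from 0.0288 to 0.0552 in wt/wt at week 1 to 0.475 to 0.643 in Δ/Δ at week 4, and was 0.578 to 1.85 in sorted cells.

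**Figure D2:**
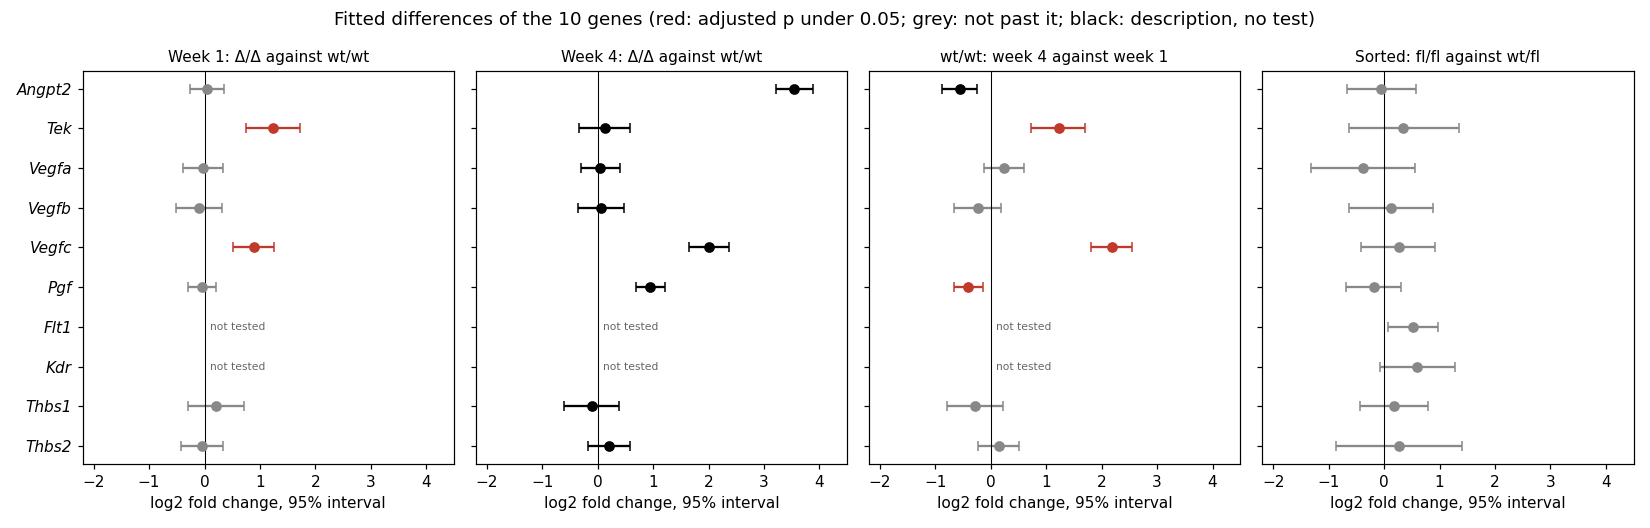
Fitted log2 fold change (x axis, with its 95% interval) of each of the 10 genes (y axis) in 4 comparisons, 3 libraries per group, with red for an adjusted p under 0.05 and black for values given with no test. Tek and Vegfc stood above 0 at week 1 and over time in wt/wt, Angpt2, Vegfc and Pgf at week 4, and none passed the test in sorted cells.

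Flt1 and Kdr were almost silent in culture. Over the 12 cultured libraries, 26 reads fell on Flt1 (chr5:147561604-147726011, minus strand) and 42 on Kdr (chr5:75932827-75978458, minus strand), of 356960530 counts. Flt1 was at 0 counts in 6 of the 12 libraries and Kdr in 3. The highest counts, 13 and 20, were in Δ/Δ replicate 3 of week 4, the deepest library, at 0.143 and 0.22 CPM. At such counts no difference between the cultured groups was detectable. The VEGFC receptor gene Flt4 is described with the rest of the pathway.

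In the sorted cells both receptors were plentiful. Flt1 was at 156.4, 139.9 and 122.6 CPM in wt/fl and at 212.8, 182.9 and 243.9 CPM in fl/fl. The groups did not overlap, which held for 20.3% of the 14605 genes tested in either direction, and the log2 difference of 0.52 (SE 0.19, interval 0.07 to 0.97) did not pass the test, with an adjusted p of 0.345 by edgeR and of 0.16 to 0.779 over 13 alternatives. Kdr was at 334.2, 271.4 and 641.3 CPM in wt/fl and at 677.3, 635.3 and 661.5 CPM in fl/fl. Replicate 3 of wt/fl lay among the fl/fl libraries, and the log2 difference was 0.6 (SE 0.29, interval -0.07 to 1.28, adjusted p = 0.459 by edgeR). Without that library it was 0.988 (adjusted p = 0.0909 by edgeR), and 0.375 without wt/fl replicate 2.

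The levels of the endothelial markers are given beside those of the receptors. The sum of the 15 markers was 3720, 3907 and 3387 CPM in wt/fl and 4483, 4300.0 and 4915 CPM in fl/fl, with no overlap. Of the 15 markers, 14 had a fitted log2 difference above 0, with a median of 0.34, and 6 lay higher in every fl/fl library (Pecam1, Cdh5, Esam, Erg, Robo4 and Mmrn2), against 11.9% of all genes tested. As a share of the summed markers, Flt1 was 4.2, 3.58 and 3.62% in wt/fl and 4.75, 4.25 and 4.96% in fl/fl. Kdr was 8.98, 6.95 and 18.9% in wt/fl and 15.1, 14.8 and 13.5% in fl/fl. The shares of Flt1 lay apart by a smaller step than its levels, and replicate 3 of wt/fl stood alone in Kdr and in Tek, which was 17.0% there and 4.44 to 9.69% in the other libraries. That library had the lowest marker sum, 3387 CPM. The part of endothelial RNA in the receptor values was not tested.

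**Figure D3:**
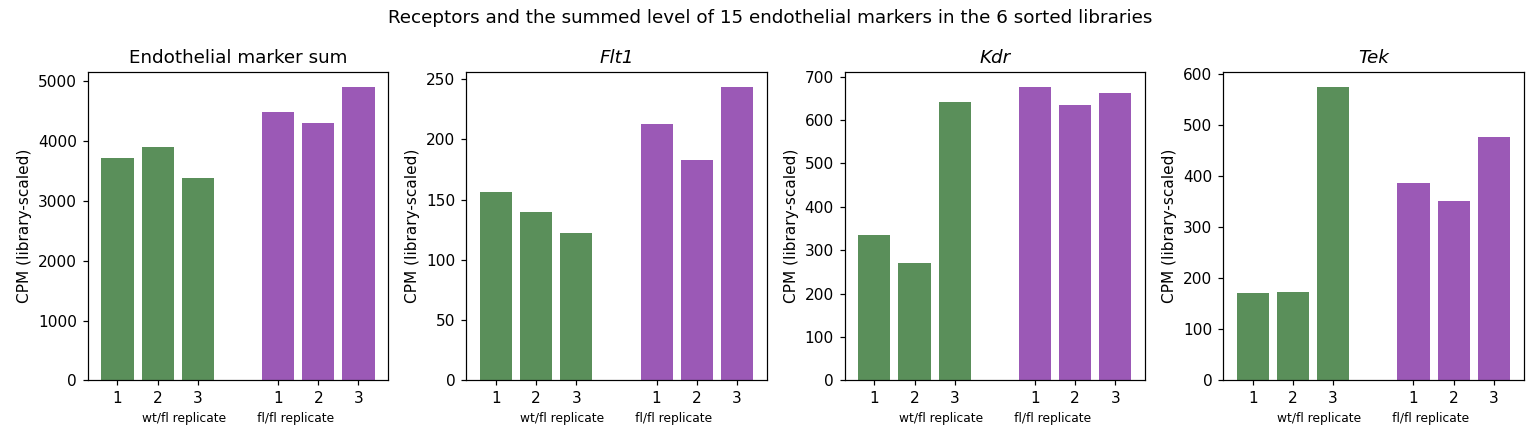
Summed level of 15 endothelial markers and levels of Flt1, Kdr and Tek (y axes, CPM from 0) in each of the 6 sorted libraries (bars), wt/fl in green and fl/fl in purple. The marker sum and Flt1 were higher in each fl/fl library than in each wt/fl library, and wt/fl replicate 3 had 641.3 CPM of Kdr and 574.5 CPM of Tek.

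The thrombospondins were by far the most abundant of the 10 genes in culture and did not pass the test in any tested comparison. Thbs1 (chr2:118111876-118127133, plus strand, with 3.42% of its exonic bases shared with the opposite-strand gene Gm29233) was at 21600, 25049 and 25442 CPM in wt/wt and at 26515, 27660 and 29365 CPM in Δ/Δ at week 1. It was at 12967, 22728 and 23907 CPM in wt/wt and at 15912, 22084 and 17670 CPM in Δ/Δ at week 4. It took 1.3 to 2.94% of all counts, and by CPM it ranked 1 of all genes in every cultured library outside the wt/wt group of week 4, where it ranked 1 to 2. At week 1 the Δ/Δ libraries were all above the wt/wt ones, but the log2 difference of 0.21 (SE 0.23) had an adjusted p of 0.852 by edgeR. Over time in wt/wt it was -0.29 (SE 0.23, adjusted p = 0.37 by edgeR).

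Thbs2 (chr17:14665500-14694235, minus strand) was at 2676 to 3585 CPM in wt/wt and 2946 to 3236 CPM in Δ/Δ at week 1, a log2 difference of -0.04 (SE 0.17, adjusted p = 0.974 by edgeR). At week 4 it was at 4554, 2989 and 3126 CPM in wt/wt and at 4760, 3673 and 3875 CPM in Δ/Δ. Replicate 1 of each genotype at week 4 had the lowest Thbs1 and the highest Thbs2 of its group, so that the ratio of Thbs1 to Thbs2 per kb was 3.28 and 3.85 in these libraries, against 8.77 and 8.82 in the other wt/wt and 6.93 and 5.26 in the other Δ/Δ libraries.

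In sorted cells Thbs1 was at 340.7, 220.2 and 202.4 CPM in wt/fl and at 336.5, 271.8 and 319.2 CPM in fl/fl, with a log2 difference of 0.18 (SE 0.26, adjusted p = 0.838 by edgeR). Thbs2 was at 180.5, 87.1 and 456.7 CPM in wt/fl and at 329.6, 271.9 and 302.4 CPM in fl/fl, with a log2 difference of 0.27 (SE 0.49, adjusted p = 0.876 by edgeR). Replicate 3 of wt/fl was again above every fl/fl library. Cultured libraries held 12967 to 29365 CPM of Thbs1, so the lowest of them was far above the highest sorted library, at 340.7 CPM.

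Per kb of exon, the order of the 10 genes differed between culture and sorted cells. In wt/wt at week 1 it was Thbs1 (3957 CPM per kb), Thbs2 (450.3), Vegfa (58.7), Angpt2 (12.7), Pgf (9.02), Vegfb (8.77), Vegfc (2.24), Tek (0.478) and then Flt1 and Kdr, both under 0.01. The libraries of Pgf and Vegfb overlapped, as did those of Flt1 and Kdr, and the other neighbours did not. In Δ/Δ at week 4 Angpt2 (101.8) stood above Vegfa (73.2), followed by Vegfc (41.0), Pgf (13.3) and Vegfb (7.83), with no overlap among these neighbours. In fl/fl sorted cells the receptors led, with Tek (85.7) and Kdr (72.9) overlapping each other, then Vegfc (52.3) and Thbs1 (50.9), while Flt1 (15.8) and Vegfb (6.94) came last.

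Counted over the genes, 2 of the 8 tested at week 1 passed the test, both higher in Δ/Δ (Tek and Vegfc), where 1.02% of the 13169 genes tested were called in either direction, 0.752% as higher and 0.266% as lower. Their median log2 difference was 0.02, against -0.004 for all genes. In 3 of the 8 (Tek, Vegfc and Thbs1) the week 1 libraries did not overlap, all higher in Δ/Δ, where 21.8% of all genes did not overlap, 11.6% as higher and 10.2% as lower. Over time in wt/wt, Tek and Vegfc passed the test as higher and Pgf as lower, where 34% of all genes were called, 17.9% as higher and 16.1% as lower. Angpt2 has no test there and is not counted. Tek and Vegfc (higher) and Pgf and Angpt2 (lower) did not overlap, where 42.3% of all genes did not, 22.3% as higher and 20% as lower.

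For the contrasts that hold the week 4 Δ/Δ libraries, the counts stand beside those of all genes and nothing is read from them. At week 4, 3 of the 8 were past the threshold and without overlap, all higher, where 15.7% of all genes were called (9.2% as higher, 6.46% as lower) and 26.8% did not overlap (15.5% as higher, 11.3% as lower). Over time in Δ/Δ, 3 of the 8 were past the threshold, all higher, where 35.1% of all genes were (18.8% as higher, 16.3% as lower). There 6 did not overlap, 5 higher and 1 lower, where 50.8% of all genes did not (26.8% as higher, 24% as lower). The genotype difference itself changed between the weeks in 4 of the 8, in 3 upwards and in 1 downwards, where 7.15% of all genes were past that threshold (4.08% upwards, 3.08% downwards).

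In sorted cells none of the 10 was called by edgeR, where 0% of 14605 genes were called. At an unadjusted p under 0.05 there were 1792 of the 14605, Flt1 among them, and DESeq2 called 463, with none of the 10 genes called by DESeq2. Flt1 alone did not overlap, where 20.3% of all genes did not, 11.9% as higher and 8.35% as lower.

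The cultured groups also differed in their markers. The summed level of 10 MSC markers, most of it Cxcl12, was 4332 to 5293 CPM in wt/wt and 6067 to 6831 CPM in Δ/Δ at week 1. By week 4 it was 7696 to 9722 CPM in wt/wt and 14665 to 18503 CPM in Δ/Δ, and the genotypes overlapped at neither week. The sum of 11 mural markers was 7999 to 10197 and 9052 to 9873 CPM at week 1 and 4963 to 6372 and 5322 to 6168 CPM at week 4, overlapping at both. Leukocyte markers (10 genes) summed to 3.11 to 5.54 CPM at week 1 and 13.9 to 21.0 CPM at week 4. Erythroid markers (8 genes) summed to 1.33 to 5.01 CPM in culture, with the globin genes at 0. The part of these markers in the values of the 10 genes was not tested.

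The other genes of the pathway were read from 7 lists of 85 genes present in the tables, 75 of them tested in culture. At week 1, 2 of the 75 passed the test, both higher (Sema3f and Comp), or 2.67% against 1.02% of all genes. At week 4, 19 were higher and 14 lower, or 44.0% of those tested, against 15.7% of all genes (9.2% as higher, 6.46% as lower). The median log2 difference was 0.09 against 0.002 for all genes. The 14 include Thbs4, which passed the filter only through the group where it is high. The lists were chosen with earlier results of these data known, so the share is a description. None of the 82 tested in sorted cells passed by edgeR, and DESeq2 called 4, where it called 463 of all 14605 genes.

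In the VEGF system, 1 of 4 genes was higher and 2 were lower at week 4, where 9.2% of all genes were higher and 6.46% lower. The receptor gene Flt4 is below the level set for naming a gene and is named after its values were seen. At week 1 it was at 1.91, 1.51 and 1.75 CPM in wt/wt and at 3.09, 2.47 and 1.92 CPM in Δ/Δ, and at week 4 at 3.44, 6.99 and 5.1 CPM in wt/wt and at 0.572, 1.28 and 1.68 CPM in Δ/Δ. At week 1 the genotypes all but touched, at 1.91 CPM in the highest wt/wt and 1.92 CPM in the lowest Δ/Δ library. The week 1 difference did not pass the test (log2 difference 0.51, SE 0.36, adjusted p = 0.685 by edgeR). At week 4 they lay apart, where 26.8% of all genes did not overlap, and Flt4 was lower in Δ/Δ. That log2 difference was -2.11 (SE 0.35, adjusted p = 0.00113 by edgeR, and 0.014 or less under 13 alternatives). In sorted cells Flt4 was at 86.6 to 170.1 CPM in wt/fl and 162.2 to 173.6 CPM in fl/fl, overlapping.

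Nrp1, a coreceptor of VEGFA, was at 202.5 ± 15.3 CPM in wt/wt and 372.0 ± 11.5 CPM in Δ/Δ at week 4 (SD, n = 3 each, log2 difference 0.87, SE 0.09, adjusted p = 2.38e-05 by edgeR). Nrp2, a coreceptor of VEGFC, went the other way, at 585.5 ± 106.4 CPM in wt/wt and 360.9 ± 45.1 CPM in Δ/Δ (log2 difference -0.71, SE 0.16, adjusted p = 0.00813 by edgeR). At week 1 the means in wt/wt and Δ/Δ were 165.3 and 151.4 CPM for Nrp1 and 304.8 and 354.1 CPM for Nrp2. Neither passed at week 1 (log2 differences of -0.13 and 0.21), and the difference between the weeks was 1.0 for Nrp1 (SE 0.12, adjusted p = 0.000323 by edgeR) and -0.92 for Nrp2 (SE 0.22, adjusted p = 0.0252 by edgeR). The value for Nrp2 was not past the threshold without week 1 wt/wt replicate 1 or 3, week 1 Δ/Δ replicate 1 or 2, week 4 wt/wt replicate 2 or 3, or week 4 Δ/Δ replicate 1, with adjusted p of 0.0565 to 0.0722 by edgeR.

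In the angiopoietin system, 2 of 6 tested genes were higher and 2 lower at week 4, where 9.2% of all genes were higher and 6.46% lower. Angpt4, a further ligand of TIE2, was at 153.4 ± 14.8 CPM in Δ/Δ and 363.8 ± 47.8 CPM in wt/wt, a log2 difference of -1.25 (SE 0.11, adjusted p = 8.62e-06 by edgeR), opposite to Angpt2. At week 1 Angpt4 was at 120.8 CPM in Δ/Δ and 109.3 CPM in wt/wt. Angptl4, a secreted inhibitor of lipoprotein lipase, was higher in Δ/Δ by 0.37 (SE 0.1, adjusted p = 0.0246 by edgeR). In the thrombospondin system 3 of 5 were higher, against the same 9.2% of all genes. Thbs4, a matrix thrombospondin counted among the 14 lower genes, passed the filter on low counts only through wt/wt at week 4, where it is high, so its call had to follow and is not read as a result. It had 1675 counts over the wt/wt libraries of week 4 and 3 over those labelled Δ/Δ, a ratio of 1212 after scaling to depth (95% counting interval 414.1 to 5884), and none in the 6 libraries of week 1. Comp, a further member of the family, was higher in Δ/Δ at both weeks, by 1.25 at week 1 (SE 0.26, adjusted p = 0.0407 by edgeR) and 0.91 at week 4 (SE 0.26, adjusted p = 0.0298 by edgeR). The receptors Cd36 and Cd47 were higher in Δ/Δ by 1.3 (SE 0.4) and 0.46 (SE 0.12) at week 4, with adjusted p of 0.0466 and 0.0237 by edgeR. From week 1 to week 4 Cd36 went from 9.53 to 4.58 CPM in wt/wt and from 15.3 to 11.5 CPM in Δ/Δ.

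Of 23 tested ligands of other families, 6 were higher and 5 lower at week 4, where 9.2% of all genes were higher and 6.46% lower. Sema3f, a semaphorin that binds NRP2, was higher in Δ/Δ at both weeks, by 1.57 at week 1 (SE 0.22, adjusted p = 0.00387 by edgeR) and 1.11 at week 4 (SE 0.23, adjusted p = 0.005 by edgeR). Sema3a, which binds NRP1, was higher in Δ/Δ by 1.16 (SE 0.16) at week 4. Its level fell with time in both genotypes, by a log2 difference of -2.07 in wt/wt and -0.77 in Δ/Δ. The growth factors Pdgfc and Hbegf were lower in Δ/Δ by 1.5 (SE 0.13) and 1.39 (SE 0.24) at week 4. The week 4 adjusted p of Sema3a, Pdgfc and Hbegf lay between 9.21e-06 and 0.00157 by edgeR.

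Of 14 tested receptors of vessels, 5 were higher and none lower at week 4, where 9.2% of all genes were higher and 6.46% lower. Eng, a coreceptor of the TGF-β family, had the largest difference, at 5.03 ± 1.29 CPM in wt/wt and 95.1 ± 11.5 CPM in Δ/Δ (log2 difference 4.2, SE 0.21, adjusted p = 2.63e-07 by edgeR). At week 1 Eng was at 39.8 CPM in wt/wt and 41.6 CPM in Δ/Δ. Its log2 difference over time was -2.98 (SE 0.2) in wt/wt and 1.17 (SE 0.18) in Δ/Δ. Pdgfra is a receptor for platelet-derived growth factors and part of the gate of these cells. It was higher in Δ/Δ at week 4 by 1.3 (SE 0.18, adjusted p = 0.00031 by edgeR). Calcrl, which with RAMP proteins reads adrenomedullin, was higher in Δ/Δ by 1.19 (SE 0.36, adjusted p = 0.0406 by edgeR). Robo1, a receptor for SLIT ligands, was higher in Δ/Δ by 0.95 (SE 0.29, adjusted p = 0.0439 by edgeR). The log2 difference of Calcrl over time was -1.46 (SE 0.36) in wt/wt and 0.12 (SE 0.34) in Δ/Δ. That of Robo1 was -0.8 (SE 0.29) in wt/wt and 0.04 (SE 0.28) in Δ/Δ. Of 8 angiogenesis inhibitors, 2 were lower at week 4, where 6.46% of all genes were. Among them was Timp3, an inhibitor of metalloproteinases that also blocks VEGFA binding to KDR, at 6204 ± 1605 CPM in wt/wt and 2290 ± 530.4 CPM in Δ/Δ (log2 difference -1.44, SE 0.23, adjusted p = 0.000829 by edgeR).

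The 16 targets of hypoxia-inducible factors, the regulators that raise VEGFA when oxygen is low, did not move one way. By the study's methods, the cultured cells were kept at oxygen below that of air, so these levels are not those of ordinary culture. At week 4, 2 were higher and 2 lower, or 25.0% against 15.7% of all genes, with a median log2 difference of -0.11. Ndrg1, a stress-response gene, was lower in Δ/Δ by 2.85 (SE 0.26), and Pdk1, which holds back pyruvate oxidation, by 0.31 (SE 0.1). Egln3, an oxygen-sensing hydroxylase, and Mxi1, an antagonist of MYC, were higher in Δ/Δ by 0.81 (SE 0.14) and 0.45 (SE 0.1). The week 4 adjusted p of these 4 genes lay between 1.05e-05 and 0.0452 by edgeR. From week 1 to week 4 Ndrg1 went from 8.96 to 65.7 CPM in wt/wt and from 14.2 to 9.19 CPM in Δ/Δ. Egln3 went from 37.7 to 19.6 CPM in wt/wt and from 32.5 to 34.4 CPM in Δ/Δ.

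Part of these week 4 calls rested on the fit or on single libraries. When the 6 week 4 libraries were fitted alone, the calls of Pdk1, Calcrl, Angptl4, Cd47, Robo1, Comp and Mxi1 were lost, with adjusted p of 0.0567 to 0.159 by edgeR. With a replicate block those of Cd36 and Pdk1 were lost (adjusted p of 0.0589 and 0.0824 by edgeR), as they were with at least 10 counts in every library (0.0519 and 0.0525), and with no filter those of Angptl4 and Pdk1 (0.0567 and 0.0998). Without wt/wt replicate 1 the calls of Cd36, Comp, Calcrl and Robo1 were lost, without replicate 2 those of Cd36, Cd47, Calcrl, Robo1 and Pdk1, and without replicate 3 those of Angptl4, Cd36, Comp and Pdk1. Without Δ/Δ replicate 1 those of Angptl4, Cd36, Cd47 and Pdk1 were lost, without replicate 2 those of Cd36, Cd47, Comp, Calcrl and Robo1, and without replicate 3 those of Angptl4, Comp, Calcrl, Robo1 and Pdk1, with adjusted p of 0.18 or less by edgeR. At week 1 the call of Comp was lost without any of the 3 Δ/Δ libraries and without wt/wt replicates 2 and 3, with adjusted p of 0.0765 to 0.183 by edgeR, and that of Sema3f was kept under all 13 alternatives.

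**Figure D4:**
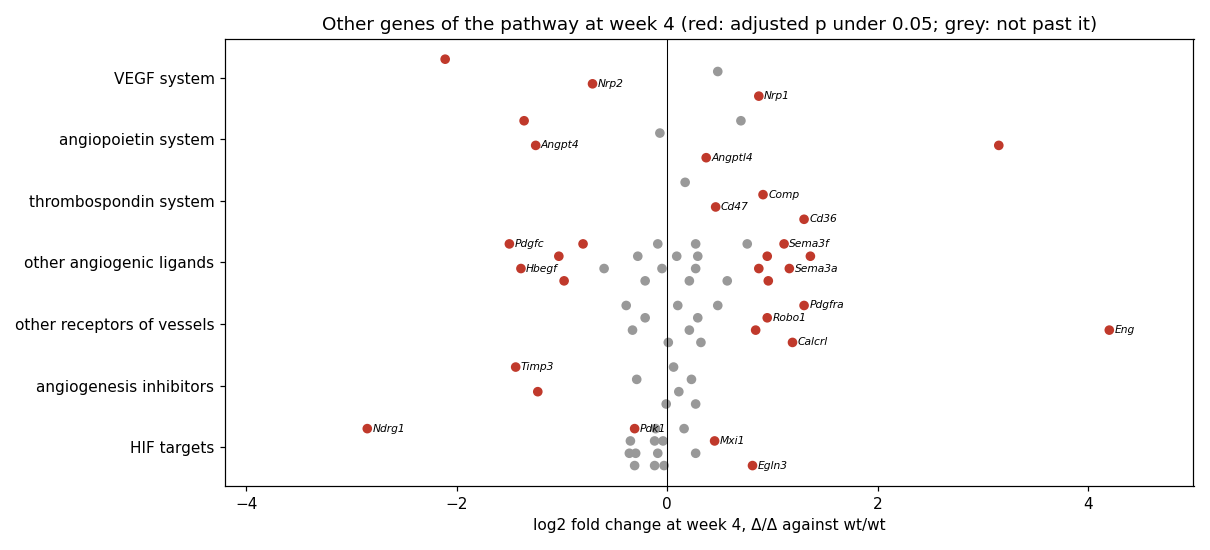
Fitted log2 fold change at week 4, Δ/Δ against wt/wt (x axis, 3 libraries per group), of each other gene of the pathway that was tested (points), by list (y axis), with red for an adjusted p under 0.05 and the named genes labelled. Thbs4 (lower) is not drawn. The drawn genes past the test lay on both sides of 0 in 4 of the 7 lists, while those of the thrombospondin system (3) and the receptors of vessels (5) were all higher and those of the inhibitors (2) lower.

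Across the 12 cultured libraries the genes whose log2 CPM followed Angpt2 most closely, of 13168, were Slc40a1 (Pearson r = 0.988), Cyp7b1 (0.984), Emb (0.98), Epha7 (0.977) and Dpep1 (0.977). Those most opposed were Slc1a1 (-0.988), Rab27b (-0.971) and Mcf2l (-0.97). The 12 libraries are 4 groups of 3, and these values rest on the Δ/Δ libraries of week 4. Slc40a1, the iron exporter ferroportin, was at 26.4 to 34.7 CPM there and at 3.14 to 7.57 CPM in the other cultured libraries. Dpep1, a membrane dipeptidase, was at 601.4 to 694.9 CPM there and at 191.0 to 319.3 CPM elsewhere in culture. Slc1a1, a glutamate transporter, was at 6.54 to 8.05 CPM there and at 16.6 to 27.1 CPM elsewhere. Among the 10 genes, Pgf had r = 0.921 with Angpt2 over the 12 libraries and 0.689 over the 9 without the Δ/Δ libraries of week 4, and Vegfc had 0.788 and -0.708.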

How the data were processed

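RNA-seq was measured in 18 mouse BM libraries. The values used are whole-number read counts per gene symbol, as the authors deposited them in 2 tables (12 cultured and 6 sorted libraries), with no normalization. The submitters' processing notes name HISAT2 2.0.4, featureCounts 1.6.3 and mm10. SMART-Seq v4 cDNA keeps no strand, so reads of overlapping genes on opposite strands cannot be told apart.

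The tests ran in edgeR 4.0.16 under R 4.3.3 (filterByExpr with a minimum count of 10, TMM, quasi-likelihood F-test, Benjamini-Hochberg adjustment, threshold 0.05). The cultured libraries shared a single fit, the sorted ones had their own, and both were tested on simulated data. Levels are counts per 1000000 of the library total and, between genes, per kb of exon (GENCODE vM21, GRCm38). Groups followed the labels.

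The 10 genes and all lists were chosen with earlier results of these data known. All 10 are named. Of each other list, at most 4 genes are named, those with the largest log2 difference among genes past a genotype test and with a mean of at least 10 CPM in 1 of the groups compared. The 5 genes most and the 3 least correlated with Angpt2 are named too.

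Libraries within a group differed beyond counting noise. Pairing of same-numbered libraries was checked by correlating their deviations from the group mean. Between the weeks, wt/wt gave 0.152, 0.22 and 0.209 for numbers 1, 2 and 3. All exceed 0.1, so wt/wt was taken as paired and a fit with the replicate number as a block was set beside it. No other comparison had all same-numbered pairs over 0.1. Between the genotypes at week 4, these pairs gave 0.636, 0.226 and -0.0835. There Δ/Δ number 2 gave 0.486 with wt/wt number 3, and Δ/Δ number 3 gave 0.392 with wt/wt number 2. Shared structure between the week 4 genotypes is therefore possible under another matching. No block with that matching was fitted, and the week 4 tests treat the libraries as unpaired. Further alternatives were RLE or library-size scaling, dropping the filter, requiring 10 counts in each library, DESeq2 1.42.0, a fit of only the 6 libraries compared and fits that each lack 1 library. A blocked fit of the wt/wt libraries alone and a fit without the 2 sorted libraries rich in megakaryocyte markers were chosen after seeing the data. Counting intervals cover counting error only.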

Additional observations from a re-analysis of the deposited data

Results flagged for a closer look

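The genotype difference changed between week 1 and week 4 for 4 of the 8 genes tested in culture. The change is the week 4 difference minus the week 1 difference on the log2 scale, from 1 model over the 12 cultured libraries. It was 3.49 for Angpt2 (SE 0.21), 1.11 for Vegfc (SE 0.24), 0.99 for Pgf (SE 0.17) and -1.11 for Tek (SE 0.31). Each was past the model's threshold, where 7.15% of all genes were, and nothing is read from that. The values are given as a description, because the libraries labelled Δ/Δ at week 4 chose the group. For Angpt2 and Pgf the week 1 groups overlapped and the week 4 groups did not. For Vegfc both weeks lay apart, by more at week 4. For Tek it was the other way round, with groups apart at week 1 and overlapping at week 4. Over 18 alternatives the change ranged from 3.33 to 3.58 for Angpt2, 0.991 to 1.25 for Vegfc, 0.913 to 1.08 for Pgf and -1.37 to -0.942 for Tek. The value for Tek was not past the threshold under 12 of the 18.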

How the results depend on the processing

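For the log2 differences of the 10 genes, 698 alternatives to 50 values were computed, of which 633 kept direction and side of the threshold, 27 lost the threshold, 7 passed it and 31 turned sign, none of the last from a value past the test. The 50 values include those given as a description with no test. For these the side of the threshold partly follows from how the group was chosen, and it is not read as a result. At week 1 the 2 calls among the 10 genes became 1 with a replicate block and 0 to 1 without a single library, and the 2 calls in the other pathway genes became 1 with at least 10 counts in every library, 5 by DESeq2, 1 with a replicate block, 5 when only the 6 libraries were fitted and 1 to 3 without a single library. Over time in wt/wt, the call of Pgf was lost with a replicate block in the 6 wt/wt libraries alone, and those of Tek and Vegfc were kept. Over time in Δ/Δ, as a description, the 3 past the threshold became 5 when only the 6 libraries compared were fitted. Over all genes, the 134 calls at week 1 became 85 with at least 10 counts in every library, 453 by DESeq2, 237 when only the 6 libraries were fitted and 49 to 181 without a single library, and the 2062 at week 4 became 1267 when only those 6 libraries were fitted. In sorted cells DESeq2 called 4 other pathway genes where edgeR called 0. The blocked fits changed no other count of calls by over 1.5 times. Without a single library, the log2 difference at week 1 ranged from -0.037 to 0.142 for Angpt2, -0.202 to 0.095 for Vegfa, -0.182 to 0.042 for Vegfb, -0.14 to 0.021 for Pgf and -0.174 to 0.071 for Thbs2. At week 4 it ranged from -0.048 to 0.14 for Vegfa, -0.145 to 0.154 for Vegfb and -0.362 to 0.049 for Thbs1. Over time it ranged from -0.042 to 0.279 for Thbs2 in wt/wt and -0.278 to 0.034 for Vegfb in Δ/Δ. In sorted cells it ranged from -0.274 to 0.236 for Angpt2, -0.142 to 0.472 for Vegfb, -0.334 to 0.042 for Pgf and -0.126 to 1.027 for Thbs2. The change between weeks ranged from -0.06 to 0.249 for Vegfa and -0.046 to 0.256 for Vegfb. In sorted cells Angpt2 was at 0.043 with library-size scaling, and Tek at -0.035 and Thbs2 at -0.11 without both libraries rich in megakaryocyte markers. The cause was not tested. Depth limits Flt1 and Kdr in culture, where neither could be tested, and 3 libraries a group limit all comparisons.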
